A study of Mus musculus with 16 samples.

Results

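The late step of an E1A induction series in mouse embryonic stem cells was examined by comparing the arrays taken at 48 h with those taken at 24 h. The members were chosen by sample title, as the 2 arrays labelled 48h and the 2 labelled 24h, which makes 4 of the 16 arrays in the series. All 16 samples were total RNA from embryonic stem cells of a mixed C57BL/6, C3H and CD1 background, each measured on a single-colour Illumina bead array. The 24h and 48h groups were harvested 24 h and 48 h after E1A induction, the 0h and 12h groups at the start and after 12 h of it, and the 48hc group carries the label of a control at 48 h. The labels list E1A induction as the treatment of every group, 0h and 48hc included, and do not say what the 48hc cells lacked, how E1A was induced, or whether the cells were 1 clone. The series title concerns reprogramming steps that do not depend on Sox2.

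E1A, an early gene product of adenovirus, attaches to retinoblastoma-type proteins and to p300 and CBP, which acetylate histones, and in this way alters transcription by E2F factors and other regulators. Mouse embryonic stem cells are held in a pluripotent state by a network of transcription factors that includes Pou5f1, Sox2, Nanog, Esrrb and the Klf factors. On leaving that state they may turn on genes of primitive endoderm, trophectoderm or the germ layers.

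Markers of the labelled cell type were present: 12 of the 13 probes for 8 embryonic stem cell genes were detected (detection p under 0.05) on every array. Each array detected 12124 to 12639 of the 25697 probes, and arrays of the same group correlated at r = 0.995 to 0.997 across the 13974 probes tested. A log2 difference between groups had a standard error of 0.12 at the median. No statement says that the 2 arrays of a group came from separate cultures, so the spread behind the p-values may be a technical one between these samples. Levels below are background-corrected, quantile-normalized log2 intensities. A probe is called when its Benjamini-Hochberg adjusted p over all tested probes was under 0.05 in limma. In these bulk samples, fewer cells of a type and less RNA per cell cannot be told apart.

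Between 24 h and 48 h, 2515 probes rose and 2559 fell, which is 18% and 18.3% of those tested and 36.3% together. The rises covered 1959 named genes and the falls 1933, with 15 genes having probes of both signs. Most late changes were modest, with a median of 0.50 among rises and -0.48 among falls on the log2 scale, while the median over all tested probes was -0.01. A change of at least 1 was reached by 217 rises and 195 falls, 2.95% of the tested probes. The arrays of the 48h and 24h groups did not overlap for any called probe, and they did not overlap for 68.5% of all tested probes either. Among the rises, 160 passed the detection limit on both 48h arrays but on no 24h array, and 156 of the falls did so on both 24h arrays but on no 48h array. At the threshold, the last called probe had an adjusted p of 0.0499868 and a change of 0.40 in size, and the first probe not called had 0.050049 and 0.24.

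The earlier course was read from the change between 0h and 24h, in which 28.9% of tested probes were called. A late call is described as newly starting where the probe was not called between 0h and 24h, as continuing where it was called with the same sign, and as reversing where it was called with the opposite sign. By this reading 3080 late calls (60.7%) newly started, 1374 (27.1%) continued and 620 (12.2%) reversed. Both contrasts use the 24h arrays, so error in those arrays by itself favours opposite signs, and the classes are counts with no test. Of the newly starting probes, 1032 rises and 1128 falls had moved by less than 0.2 between 0h and 24h, whereas 292 rises and 273 falls had an unadjusted p under 0.05 there. When the earlier course was read from 12h against 0h, which shares no array with the late contrast and called 13.3% of tested probes, 4076 late calls newly started, 550 continued and 448 reversed. With 24h replicate 1 or replicate 2 left out, the continuing calls by the first reading numbered 797 and 806 and the reversing calls 401 and 412.

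**Figure D1:**
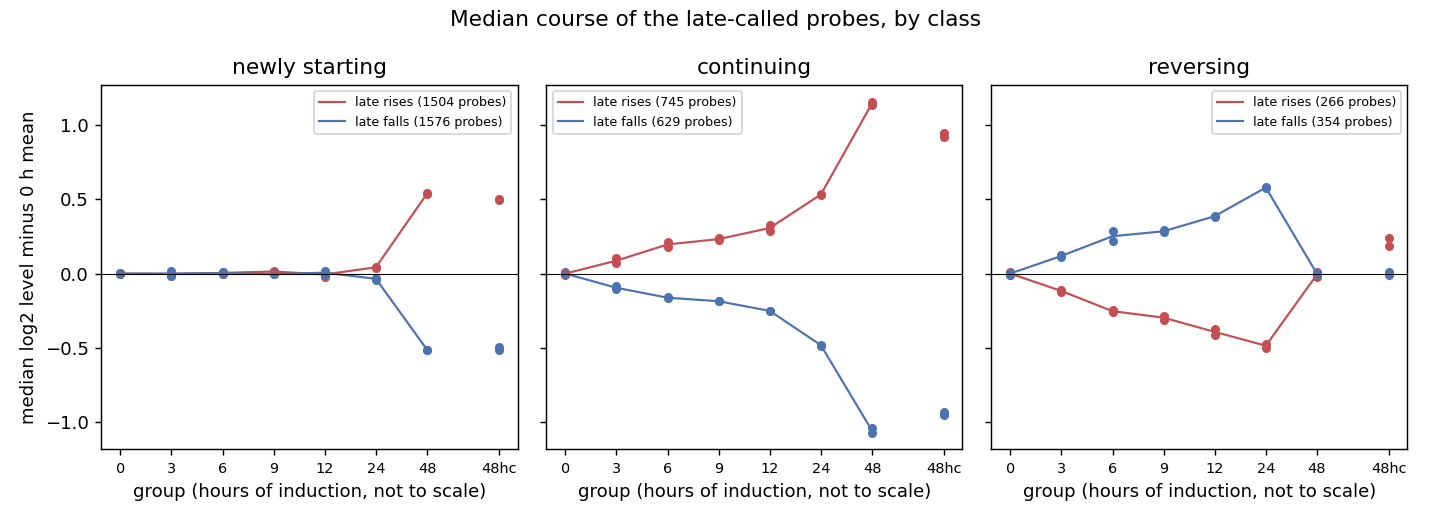
Median log2 level minus the 0h mean (y axis) in each group (x axis, hours of induction, not to scale) for newly starting, continuing and reversing late calls. Points are the medians on single arrays and lines join group means. Newly starting probes lay near 0 up to 24 h, continuing rises stood at 1.16 and 1.13 at 48 h, and reversing probes lay near 0 again at 48 h.

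The newly starting rises had a median level 0.05 and 0.04 above 0h on the 24h arrays and 0.53 and 0.54 above it on the 48h arrays. The continuing rises stood at 0.54 and 0.53 at 24 h and at 1.16 and 1.13 at 48 h, so that their level was further from 0h than in the other classes. Reversing falls went from 0.57 and 0.58 above 0h at 24 h to 0.01 and -0.01 at 48 h. At 48 h, 214 of the 354 reversing falls were not called against 0h, 63 were still above it and 77 were below it. Of the 266 reversing rises, 184 were not called against 0h, 38 were still below it and 44 were above it. The contrast of 48h with 0h shares arrays with the late contrast and called 53% of all tested probes.

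The largest late rise was that of Acta1, the skeletal muscle alpha-actin. Its level was 7.05 and 6.67 at 24 h and 10.05 and 9.85 at 48 h, an 8.51-fold rise (log2 change 3.09, SE 0.14, adjusted p = 3.24e-09). It had fallen by 0.61 between 0h and 24h, so it belongs to the reversing class. On the 48hc arrays Acta1 lay at 6.84 and 6.64, within the range of the 24h arrays or below it. It was the only gene among the 10 largest rises that was not also called higher in 48hc than in 0h.

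Adssl1, the muscle form of adenylosuccinate synthetase, stood at 7.12 and 7.10 at 24 h and at 9.80 and 9.69 at 48 h (log2 change 2.64, SE 0.10, adjusted p = 1.3e-09). Its 48hc levels were 9.93 and 9.77, and 48h did not differ from 48hc past the threshold (adjusted p = 0.538). Gsc, a homeobox factor of the embryonic organizer, was at 5.32 and 5.01 at 24 h, at 7.49 and 7.34 at 48 h and at 8.82 and 8.60 in 48hc. Both groups at 48 h were thus above 24 h for Adssl1 and Gsc, and for Gsc the control was the higher of the 2 (log2 48h minus 48hc -1.30, adjusted p = 1.27e-05). Tgfbi, an extracellular matrix protein, rose 4.23-fold from 6.96 and 6.75 to 8.92 and 8.95, with 10.07 and 10.02 in 48hc. The other large rises were those of complement C2 (4.88-fold), the calcium-binding proteins S100a1 (4.76-fold) and S100a13 (4.56-fold), the cell cycle regulator Rgcc (at least 3.97-fold), the muscle cytochrome c oxidase subunit Cox6a2 (at least 3.89-fold) and the glycosyltransferase B4galnt2 (at least 3.43-fold). The bounds apply where neither 24h array detected the probe.

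Among the largest falls were the Nodal antagonists Lefty1 and Lefty2. Lefty1 stood at 8.71 and 8.59 at 0 h, 11.19 and 11.09 at 24 h and 8.79 and 8.69 at 48 h, so that its earlier gain was gone (log2 change -2.40, SE 0.11, adjusted p = 4.11e-09). Lefty2 went from 7.72 and 7.68 to 5.45 and 5.76, below its 0h levels of 7.02 and 6.67. Nodal itself, the ligand they antagonize, newly fell from 8.54 and 8.47 to 7.07 and 7.01 (log2 change -1.46, SE 0.10, adjusted p = 1.9e-07). These 3 genes were also below 24h in 48hc, where Lefty1 lay at 8.22 and 8.14 and Nodal at 7.59 and 7.53.

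Etv4, an ETS factor induced by fibroblast growth factor signalling, continued to fall from 7.71 and 7.77 to 5.18 and 5.39 (log2 change -2.46, SE 0.09, adjusted p = 6.71e-10). Its 48hc levels of 7.04 and 7.06 lay between the 24h and 48h arrays. Epha2, an ephrin receptor, and Slc4a3, an anion exchanger, were among the largest newly starting falls at -1.76 and -1.74. Ddc, which encodes the decarboxylase of dopamine and serotonin synthesis, was among the largest continuing falls at -1.74. Ms4a10 fell by 2.47, Mlana, a melanosome protein, by 2.33, the transporter gene Slco4a1 by 1.94, Enox1 by 1.89, D630023F18Rik by 1.85 and the leukotriene receptor gene Ltb4r1 by 1.81. Mup2 fell at least 3.29-fold, but its family members are near identical in sequence and its probe may read several of them. Parm1 was among the largest reversing rises, at 1.48.

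Pluripotency genes split into those that went on falling and those that returned. Of 47 tested probes for 26 naive pluripotency genes, 18 rose, 11 fell and 18 were not called, with a median of 0.09. Of the 29 called probes, 18 reversed, 6 continued and 5 newly started. Between 0h and 24h, 33 of the 47 had been lower and 2 higher.

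**Figure D2:**
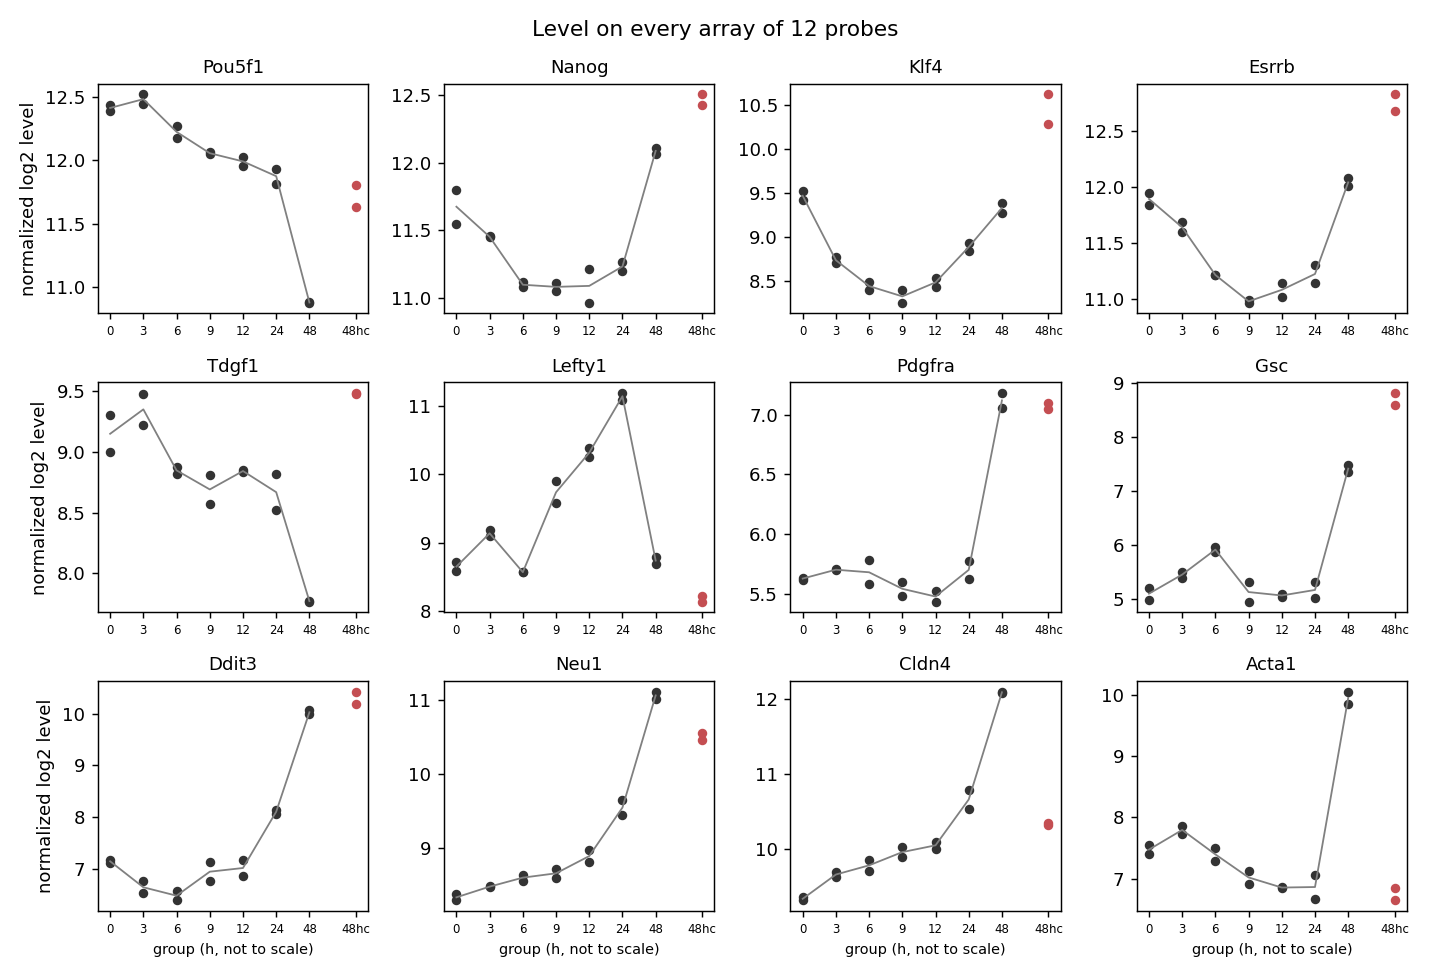
Normalized log2 level (y axis) of 12 probes on every array of each group (x axis, hours, not to scale). Black points are arrays of the induction course, the grey line joins group means and red points are the 48hc arrays. The Pou5f1 panel shows the dimmer of its 2 probes. Pou5f1 and Tdgf1 ended below all earlier groups, Nanog, Klf4 and Esrrb rose after their earlier fall, and Acta1 was high at 48 h but not in 48hc.

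Pou5f1, the POU factor central to the network, went from 12.92 and 12.76 at 0 h to 12.06 and 12.07 at 24 h and 11.15 and 11.14 at 48 h on the brighter of its 2 probes (log2 change -0.92, SE 0.09, adjusted p = 2.01e-06). The other probe was also called lower. In 48hc the brighter probe lay at 12.02 and 12.08, above both 48h arrays (log2 48h minus 48hc -0.91, adjusted p = 4.82e-06). Utf1, a chromatin-bound factor of undifferentiated cells, continued to fall from 10.11 and 9.94 to 8.56 and 8.52. Tdgf1, the Nodal co-receptor, continued to fall on both of its probes, from 8.52 and 8.82 to 7.77 and 7.78 on the brighter of them. Its 48hc levels of 9.47 and 9.49 on that probe were above the 24h arrays.

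Nanog, the homeobox factor of the network, was at 11.20 and 11.26 at 24 h and at 12.11 and 12.06 at 48 h (log2 change 0.85, SE 0.10, adjusted p = 2.3e-05). It thereby passed its 0h levels of 11.80 and 11.55 (adjusted p = 0.0039 for 48h against 0h). Esrrb, an orphan nuclear receptor, rose from 11.30 and 11.14 to 12.08 and 12.01, beside 11.95 and 11.84 at 0 h. All 3 Klf4 probes rose, by 0.43, 0.38 and 0.44, and Klf2 rose by 0.81. Tcl1, a co-activator of Akt, rose by 1.11 and 1.06, Tbx3 by 0.84 and 0.86 on 2 of its 3 probes, and Nr5a2 by 1.18 and 0.90 on 2 of its 3. Dppa3, a maternal chromatin factor, newly rose from 9.07 and 9.14 to 10.44 and 10.38.

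Sox2 did not pass the test on either probe. Its levels at 24 h and 48 h were 7.89 and 8.25 against 8.16 and 8.26 on the first probe (log2 change 0.15, adjusted p = 0.489), and the change on the second was 0.20 (adjusted p = 0.328). Zfp42 had 10.47 and 10.50 at 24 h and 10.42 and 10.56 at 48 h, with a change of 0.00. Fgf4 rose by 0.47 but at 6.35 and 6.63 stayed below its 0h levels of 7.09 and 7.27. The 48hc arrays held higher levels of most of these genes than the 48h arrays: 33 of the 47 probes were lower in 48h than in 48hc and 3 were higher, where 17.9% of all tested probes were called in either direction. The summed linear level of the 13 stem cell marker probes was 50102 to 51339 at 24 h, 49670 to 50508 at 48 h and 67876 to 69862 in 48hc.

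Genes of the formative state, which follows naive pluripotency, fell. Of 8 tested probes 5 fell and 0 rose, with a median of -0.63. Pou3f1, a POU factor of that state, went from 8.99 and 8.81 at 24 h to 7.46 and 7.18 at 48 h, below its 0h levels of 7.69 and 7.55 (adjusted p = 0.043 for 48h against 0h). Dnmt3b, a de novo DNA methyltransferase, continued to fall from 7.55 and 7.53 to 6.47 and 6.70. All 5 late falls of the list had the same sign in 48hc against 0h, where 73.8% of all late falls did.

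Primitive endoderm genes rose together. Of 22 tested probes for 17 genes, 20 rose and 0 fell, with a median of 0.78, and 12 of the 20 newly started. Pdgfra, the receptor that marks this lineage, lay at 5.63 and 5.78 at 24 h and at 7.18 and 7.06 at 48 h (log2 change 1.41, SE 0.10, adjusted p = 1.23e-07). Lama1, a laminin chain of basement membrane, newly rose from 9.22 and 9.03 to 10.69 and 10.65. The collagen IV genes Col4a1 and Col4a2 each rose by 1.34. Levels in 48hc were close to those at 48 h, with 7.10 and 7.05 for Pdgfra and 10.56 and 10.39 for Lama1. Of the 20 rises, 16 had the same sign in 48hc against 0h, where 77.4% of all late rises did. In 48h, 3 of the 22 probes were higher and 1 lower than in 48hc, where 17.9% of all tested probes were called in either direction.

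Of 18 tested trophectoderm probes, 10 rose and 0 fell, with a median of 0.42. Over all tested probes 18% rose and 18.3% fell. Krt7 and Krt18, keratins of simple epithelia, rose by 1.39 and 1.04, Krt7 from 6.00 and 6.33 to 7.54 and 7.56. Gata3, a zinc finger factor of trophoblast, newly rose from 6.25 and 6.32 to 7.27 and 7.22, while its 48hc levels were 6.38 and 6.49. For 7 of the 18 probes 48h was above 48hc, and for 0 below, where 17.9% of all tested probes were called in either direction. The next lists were small and stand beside the same 18% rising and 18.3% falling over all tested probes. Of the 6 mesendoderm probes, 2 rose and 2 fell, with Eomes falling by 0.57. Of the 9 neuroectoderm probes, 2 rose and 2 fell, with Nes falling by 0.72. These counts were 1 in place of 2 for mesendoderm falls without 48h replicate 2 or 24h replicate 1, for neuroectoderm rises without either 48h replicate, and for neuroectoderm falls without 48h replicate 1 or 24h replicate 2.

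**Figure D3:**
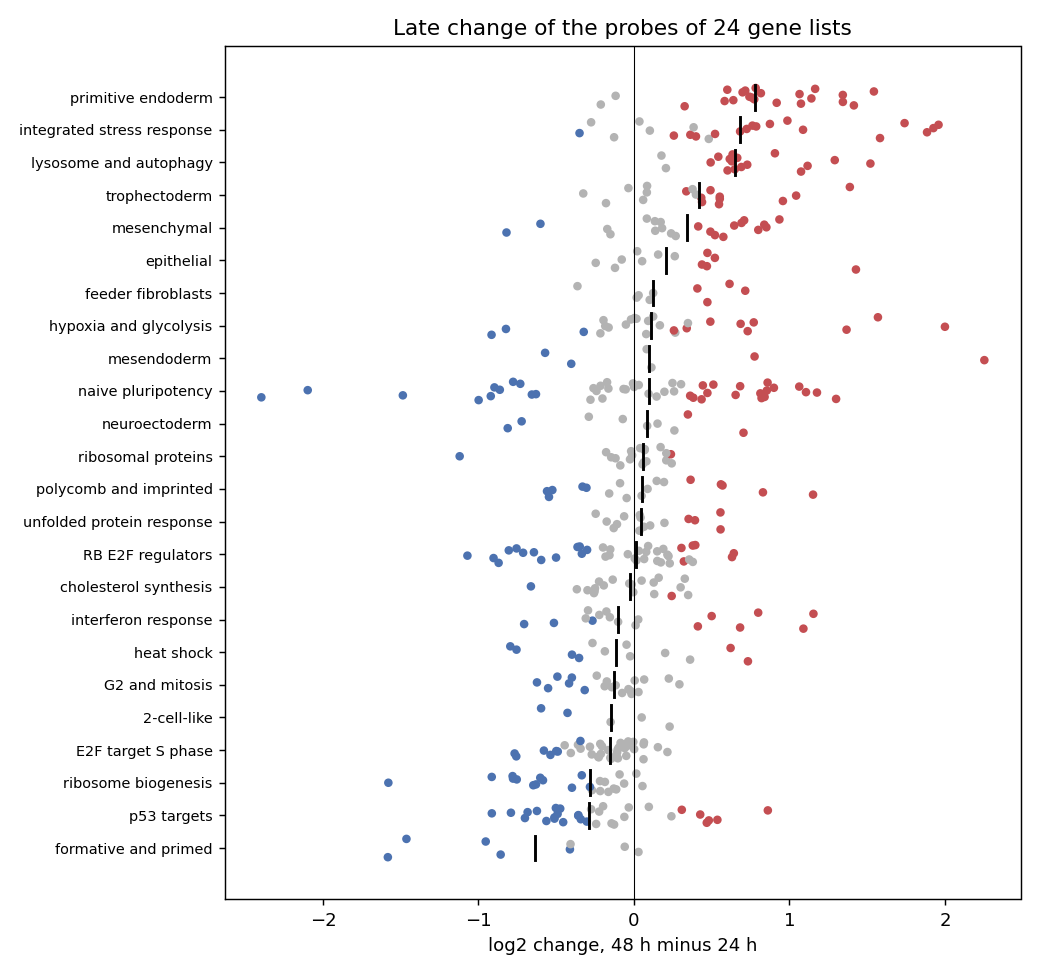
Log2 change from 24 h to 48 h (x axis) of the tested probes in each of 24 gene lists (y axis). Each point is a probe, in red where it rose, blue where it fell and grey where it was not called, and black bars are list medians. Primitive endoderm has the highest median (0.78) and the formative and primed list the lowest (-0.63).

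Genes of the integrated stress response, which cells use when amino acids run short or translation initiation is curbed, rose. Of 23 tested probes 16 rose and 1 fell, with a median of 0.68. Between 0h and 12h, 9 of the 23 had been lower and 1 higher, whereas between 0h and 24h 2 had been lower and 7 higher. Ddit3, a transcription factor of this response, continued to rise from 8.14 and 8.06 to 9.99 and 10.07 (log2 change 1.93, SE 0.14, adjusted p = 2.18e-07). Vldlr, a lipoprotein receptor, rose from 6.80 and 6.57 to 8.66 and 8.62. Asns, asparagine synthetase, newly rose from 8.53 and 9.03 to 9.72 and 10.02, and Mthfd2, a mitochondrial folate enzyme, by 0.87. In 48hc, Ddit3 was at 10.20 and 10.43 and Asns at 10.32 and 10.63, at or above the 48h levels. Of the 17 called probes, 15 had the same sign in 48hc against 0h, where 75.6% of all late calls did.

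The ATF4 element of this response, TGATGNAA, was searched on both strands of the RefSeq promoter windows, which run from 250 bases before to 50 after a gene's start. It was held by 4 of the 11 genes with a window that rose, namely Asns, Chac1, Trib3 and Vldlr, which are named here for the match. In the whole list 5 of 14 genes with a window held it, the other being Atf3, which was not called as rising. Chac1, a glutathione-degrading enzyme, rose by 0.68, and Trib3, a pseudokinase, by 0.52. The same letters occurred in 3.97% of all windows, in 3.03% of tested genes, in 4.05% of genes with a late rise and in 2.63% of those with a late fall. The list names genes of this response, so a high share of matches among them is no result of the array values. A match is a description of these letters and no measure of binding. The stretches below show the matched element, in capitals, in 3 of the genes, read 5′ to 3′ on the gene's strand in GRCm38.p6. They lie at chr6:7693210-7693272 on the minus strand, chr2:119351009-119351096 on the plus strand and chr19:27216780-27216867 on the plus strand, in that order.
Asns: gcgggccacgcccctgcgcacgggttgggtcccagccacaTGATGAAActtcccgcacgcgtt
Chac1: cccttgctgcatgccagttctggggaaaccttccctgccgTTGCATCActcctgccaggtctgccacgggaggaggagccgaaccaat
Vldlr: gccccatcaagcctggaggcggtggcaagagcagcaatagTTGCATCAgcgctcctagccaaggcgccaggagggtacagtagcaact
In Asns the element reads on the gene's own strand, and in Chac1 and Vldlr on the opposite strand.

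Lysosome and autophagy genes rose further. Of 17 tested probes 15 rose and 0 fell, with a median of 0.65, and 11 of the 15 continued an earlier rise. Neu1, the lysosomal sialidase, stood at 8.28 and 8.37 at 0 h, 9.64 and 9.45 at 24 h and 11.12 and 11.01 at 48 h (log2 change 1.52, SE 0.10, adjusted p = 7.91e-08). Hexa, a hexosaminidase subunit, rose by 1.29, Lamp2, a lysosomal membrane protein, by 1.12, and the protease cathepsin B gene Ctsb by 0.73. In 48hc Neu1 was at 10.56 and 10.46, above 24h and below 48h. Of the 17 probes 7 were higher and 0 lower in 48h than in 48hc, where 17.9% of all tested probes were called in either direction. The CLEAR element, TCACGTGA, was also searched for this list in the same promoter windows. It was held by 1 of the 11 genes with a window that rose, Mcoln1. In the whole list 2 of 13 held it, the other being Ctsd, which was not called as rising. The letters occurred in 2.11% of tested genes and in 2.40% of genes with a late rise.

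Ribosome biogenesis genes fell, on 12 of 23 tested probes with 0 rising and a median of -0.28, and 8 of the 12 continued an earlier fall. Pes1, a factor of 60S subunit assembly, went from 9.22 and 9.26 to 7.62 and 7.69, with 7.05 and 6.90 in 48hc. Nucleolin (Ncl) fell by 0.91, the RNA methyltransferase gene Nop2 by 0.75 and the RNA polymerase I subunit gene Polr1a by 0.78. All 12 falls had the same sign in 48hc against 0h, where 73.8% of all late falls did. With the brightest probe of each gene alone, 6 of these genes fell. Of 19 probes for ribosomal proteins, 1 rose and 1 fell, and with any of the 4 arrays left out 0 rose.

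Members of the retinoblastoma and E2F system moved in both directions, with 6 of 39 tested probes rising, 13 falling and a median of 0.02. Of all tested probes 18% rose and 18.3% fell. Without 48h replicate 2, 8 of the 39 fell. With 1 probe per gene, 6 of the 23 genes rose and 8 fell. Rb1, the retinoblastoma gene, did not pass the test on either probe, with changes of 0.21 and 0.09, nor did Rbl1 at -0.04. All 3 Ccnd1 probes, for cyclin D1, fell by 0.87, 0.90 and 1.07, and the first of them went from 11.35 and 11.29 to 10.47 and 10.43. In 48hc that probe was lower still, at 9.56 and 9.55. The 3 probes were called higher in 48h than in 48hc, by 0.89, 0.81 and 1.01. Ccnd2, for cyclin D2, rose from 6.60 and 6.90 to 7.36 and 7.44, while its 48hc levels of 5.84 and 5.52 were below the 24h arrays. Cdkn1c, a cyclin-dependent kinase inhibitor, fell by 0.71 after its earlier rise of 1.41, and Cdkn1a, another, fell on all 3 probes. Among the E2F genes, E2f3 and E2f4 fell by 0.81 and 0.76, and E2f1 and E2f5 rose by 0.32 and 0.38. The acetyltransferase gene Ep300 rose by 0.31. Rbl2 and Cdk6 did not pass the detection filter, and E2f8, Crebbp and Cdk4 were not analysed here.

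Genes of the S phase that E2F factors control had 7 of 39 probes falling and 0 rising, with a median of -0.15. Tyms, thymidylate synthase, fell by 0.77, and Cdc6, which licenses replication origins, by 0.49. That share is near the 18.3% of all probes that fell. With an intensity trend and robust moderation in limma 13 of the 39 fell, and with the replicate block 12. In 48hc against 0h, 27 of the 39 were lower. Of 20 probes for G2 and mitosis genes 6 fell and 0 rose, among them Cdc20 by 0.62, but only 2 genes were involved, and without 48h replicate 1 or 24h replicate 1 3 of the probes fell.

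Of 32 probes for targets of p53, 16 fell and 6 rose, with a median of -0.29. The falls came from 9 genes and the rises from 2. By 24h against 0h, 11 of the 22 reversed their earlier course. In that contrast 11 of the 32 were higher and 5 lower, whereas in 12h against 0h 2 were higher and 4 lower. Fas, a death receptor, went from 4.98 and 4.87 at 0 h to 6.00 and 5.83 at 24 h and 5.09 and 4.91 at 48 h. Its 0h levels were near the detection limit, as C2, at 4.82 and 4.87, was detected on neither 0h array. Phlda3, an inhibitor of Akt, fell by 0.70. Tnfrsf10b, another death receptor, went against this and continued to rise by 0.86. In 48hc, Fas lay at 4.87 and 5.18, near 0h.

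Among 26 probes for hypoxia and glycolysis genes, 9 rose and 3 fell, with a median of 0.11. Vegfa, the vascular growth factor, newly rose from 7.68 ± 0.25 (mean ± SD, n = 2) to 9.68 ± 0.09, and Ndrg1 at least 2.46-fold. The glycolytic enzyme gene Ldha and Pdk1, a kinase that inhibits pyruvate dehydrogenase, fell by 0.82 and 0.92, so the list did not move as a whole. Of the 20 cholesterol synthesis probes, 12 of which had been lower at 24 h than at 0 h, 1 rose and 1 fell. Of the unfolded protein response probes 4 of 15 rose, in 2 genes, and 0 fell. Beside these small lists, 18% of all tested probes rose and 18.3% fell. Heat shock probes numbered 2 rising and 4 falling of 12, interferon response probes 6 and 3 of 17, and polycomb and imprinted gene probes 5 and 5 of 17, with Grb10 rising by 1.15 and Mest falling by 0.56. The counts of these small lists changed by over 1.5 times with single arrays left out: 2 heat shock probes fell without 48h replicate 1 or 24h replicate 2 and 1 rose without 48h replicate 2 or 24h replicate 1, 2 and 1 unfolded protein response probes rose without 48h replicate 1 and 24h replicate 1, and 3, 2 and 3 polycomb and imprinted probes fell without 48h replicate 1, 48h replicate 2 and 24h replicate 2. For cholesterol synthesis 0 rose without 48h replicate 1, 48h replicate 2 or 24h replicate 1, and 2 fell without 48h replicate 2.

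The late changes were then set beside the 48hc arrays. The contrast of 48hc with 0h, which shares no array with 48h against 24h, called 52.9% of tested probes. Of the 5074 late calls, 3835 (75.6%) changed there in the same direction, 171 (3.37%) in the opposite direction, and 1068 were not called. Those 3835 probes were 51.9% of the 7388 calls of 48hc against 0h. By class, the same sign was found for 73.9% of newly starting rises, 75.2% of newly starting falls, 96.2% of continuing rises and 96.5% of continuing falls. For reversing calls it was 44.7% of rises and 27.1% of falls, which a probe returning to its 0h level would not enter. The order of the classes depends on the group that 48hc is set against, and turns round against 24h.

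**Figure D4:**
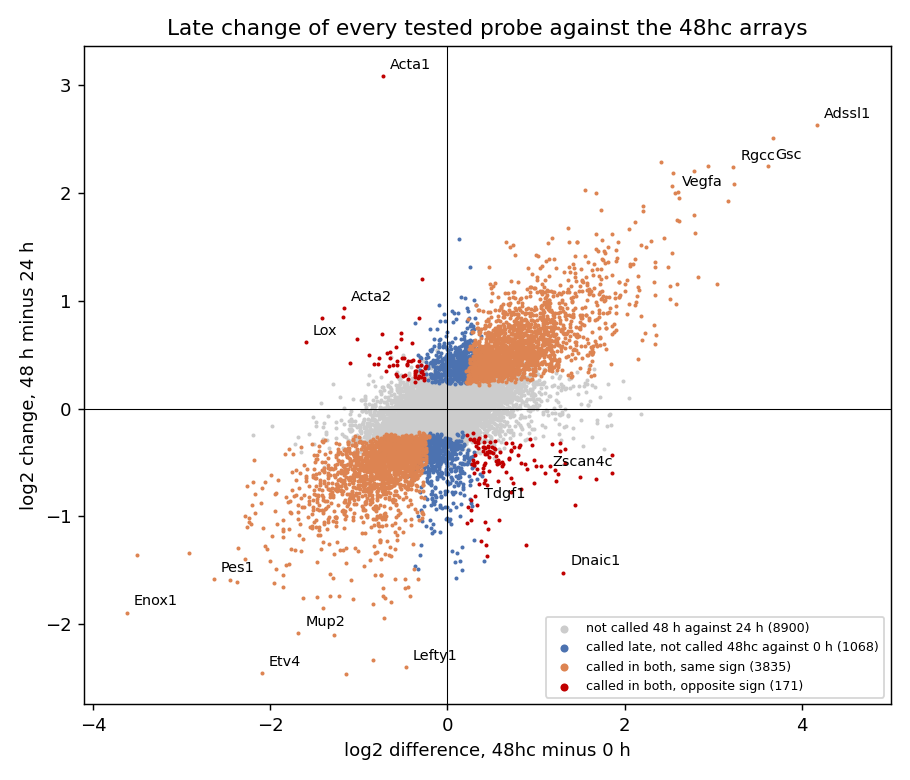
Log2 change from 24 h to 48 h (y axis) against the log2 difference of 48hc from 0h (x axis) for each tested probe. Grey points were not called late, blue were called late but not in 48hc against 0h, orange were called in both with the same sign (3835) and red with opposite signs (171). Acta1, Acta2 and Lox stand among the red points at the upper left, and Dnaic1 and Zscan4c among those at the lower right.

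Set against 24h, whose arrays both contrasts share, 42.6% of tested probes were called in 48hc, and 3632 late calls had the same sign there and 96 the opposite sign. The same sign was then found for 70.3% of newly starting rises and 74.0% of newly starting falls, for 60.7% of continuing rises and 71.2% of continuing falls, and for 83.1% of reversing rises and 80.8% of reversing falls. The 2 groups harvested at 48 h differed directly on 1290 late calls, 15.8% of the late calls in the direction of the late change and 9.66% against it, where 17.9% of all tested probes were called in either direction. This contrast shares the 48h arrays with the late contrast, and error in those arrays by itself favours the same direction. Late rises were higher in 48h than in 48hc on 442 probes and lower on 295, and late falls were lower on 358 and higher on 195. Continuing rises were higher in 48h on 243 probes and lower on 26, while reversing rises were higher on 18 and lower on 108. Without 48h replicate 1 or 2 the 1290 numbered 677 and 660. Some late rises were not called in 48hc against 24h and not called higher in 48hc than at the start of induction. Of these, 146 were called above 48hc at 48 h. With lower in place of higher, 122 late falls were called below 48hc at 48 h. A call opposite to the late change was allowed against the start of induction, as for Acta1.

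Most mesenchymal probes differed between the 2 groups at 48 h. Of 22 tested probes for 15 genes 11 rose and 2 fell, with a median of 0.34. Over all tested probes 18% rose and 18.3% fell. In 48h, 16 of the 22 were higher and 1 lower than in 48hc, where 17.9% of all tested probes were called in either direction. The 48hc arrays had themselves moved down from 24h, with 10 of the 22 lower, 1 higher and a median of -0.25. Acta2, smooth muscle actin, newly rose from 7.42 and 7.45 to 8.38 and 8.36, whereas 48hc lay at 6.20 and 6.33 (log2 48h minus 48hc 2.10, adjusted p = 9.77e-10). Ccn2, a matricellular protein, rose by 0.71 and Cnn2, a calponin, by 0.80, while vimentin (Vim) fell by 0.82. With 1 probe per gene, 5 of the 15 genes rose. Of 9 tested feeder fibroblast marker probes, 4 rose, 0 fell and 5 were not called, and their summed linear level was 905 to 965 at 24 h, 1021 to 1022 at 48 h and 917 to 961 in 48hc. The defining fibroblast genes Col1a1, Col1a2, Col3a1, Lum and Postn were detected on no array of these 3 groups. Col5a1, Lox, Loxl1, Mmp2, Thy1 and Timp3 were each detected by a probe on all 16 arrays of the series, and Fbln2 on 14 of them. Without 48h replicate 2, 2 of the 9 feeder probes rose, and without 24h replicate 2, 2 rose and 1 fell. A fall of 1 feeder probe was also called with the replicate block, with the intensity trend, without background correction, with the stricter filter and with only the arrays compared. The part of such cells in the mesenchymal values was not tested.

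Of 12 epithelial probes 5 rose and 0 fell, with a median of 0.21, and 3 rose without 48h replicate 1. Cldn4, a tight junction claudin, continued to rise from 10.79 and 10.54 to 12.08 and 12.10, above the 48hc levels of 10.35 and 10.33. Cldn3, Cldn6 and Cldn7 rose by 0.52, 0.47 and 0.47. Of 5 probes for genes of the 2-cell-like state, 2 fell, 0 rose and 3 were not called, with a median of -0.15. Of all tested probes 18.3% fell. Set against 48hc, 4 of the 5 were lower in 48h, where 17.9% of all tested probes were called in either direction. Without 48h replicate 2 or 24h replicate 2, 1 of the 5 fell. Zscan4c, a zinc finger gene of cells resembling the early embryo, was at 9.92 and 10.01 at 24 h, at 9.34 and 9.39 at 48 h and at 11.09 and 11.20 in 48hc, but belongs to a family of near-identical genes. Of the late calls opposite in sign to 48hc against 0h, the largest were Acta1, the dynein gene Dnaic1 and Acaa1b, an enzyme of peroxisomal fat oxidation. Dnaic1 fell from 8.79 and 8.76 to 7.24 and 7.27, with 8.31 and 8.30 in 48hc, and Acaa1b fell by 1.37.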

How the data were processed

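Total RNA of 16 samples was measured, 2 arrays for each of 8 groups taken from the titles. The deposited table, called non-normalized by the authors, holds linear intensities and detection p-values for 25697 probes. The series matrix holds log2 values deposited by the authors, with the scale read from the values, and served as an alternative. The submitters' processing notes name BeadStudio 3.2, RMA and lumi without their roles. Genes came from the platform annotation: 23978 probes had 1 symbol, 0 several and 1719 none, and 16 symbols were not in the RefSeq table.

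The normexp background correction of limma 3.58.1 under R 4.3.3 took its background from the detection p-values and used an offset of 16 that shrinks the changes of dim probes. Quantile normalization and log2 followed. Probes detected (p under 0.05) on at least 2 of 16 arrays were tested, which left out 11723. All arrays entered a limma fit with a mean for each group, which leaves 8 residual degrees of freedom, and contrasts were adjusted by the Benjamini-Hochberg method. The number of arrays limits the precision. The procedure was tested on simulated data. Bounds on folds use the lowest level of a detected probe on each array that did not detect the probe.

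Named genes were the 10 largest rises and falls, the 3 largest in each class and direction, the 3 largest opposite in 48hc, all naive pluripotency and retinoblastoma regulators, and up to 4 per other list. The comparisons and the 24 lists were chosen with earlier results of these data known. Arrays sharing a replicate number deviated from their groups with r = 0.11 between 24h and 48h, r = 0.17 between 48h and 48hc and r = -0.03 between 0h and 24h. The labels state no pairing, so numbers were not used as pairs. Alternatives covered normalization, background, filter, moderation, threshold, arrays fitted, the replicate block and single arrays left out.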

Additional observations from a re-analysis of the deposited data

Results flagged for a closer look

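For 11 named genes, 48h and 48hc were each called against 24h but with opposite signs, and the difference between the 2 groups at 48 h was itself called (limma, adjusted p under 0.05). Higher in 48h than in 48hc were Acta2, with a log2 difference of 2.10, Lox (1.80), Cldn4 (1.75), Ccnd2 (1.71), Cldn3 (1.52), Crabp2 (1.18), Fbln2 (0.93) and Cldn6 (0.77). Lox, which crosslinks collagen, went from 6.42 and 6.78 at 24 h to 7.22 and 7.20 at 48 h and 5.48 and 5.35 in 48hc. Crabp2, a retinoic acid carrier, was at 7.06 and 7.11, 7.78 and 7.79, and 6.53 and 6.69 in the same order. Lower in 48h than in 48hc were Zscan4c (-1.78), Tdgf1 on both probes (-1.51 and -1.71) and Tcstv1 (-1.54). Both comparisons with 24h use the same 24h arrays. Groups of 2 arrays were too small to examine for single outlying arrays.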

How the results depend on the processing

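Of 317 alternative counts and shares, 55 moved by over 1.5 times or, for the share of late calls that rose, crossed an even split. That share was 49.6% and became 53.6% with cyclic loess, 50.01% with no filter, 50.57% at an adjusted p under 0.01 and 52.7% at a log2 change of at least 1, so neither direction had a stable majority. An adjusted p under 0.01 left 3318 late calls (752 continuing and 309 reversing by 24h, 233 and 212 by 12h), 2422 calls of 24h against 0h, 870 of 12h against 0h and 1342 of 48h against 48hc. Of those late calls 2547 had the same and 70 the opposite sign in 48hc against 0h, and 628 differed between 48h and 48hc. A log2 change of at least 1, asked of each contrast used, left 412 late calls, 251 of 24h and 81 of 12h against 0h, 1163 of 48hc against 0h, 199 of 48h against 48hc, 647 of 48hc against 24h and 1203 of 48h against 0h. Then 360 late calls newly started, 35 continued and 17 reversed by 24h, and 396, 7 and 9 by 12h, while 266 had the same and 1 the opposite sign in 48hc, 36 differed from 48hc and 40 were list members. Fitted to only the arrays compared, 12h against 0h had 1196 calls and 332 late calls continued by 12h.

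Leaving out single arrays gave a share of rises of 49.6% to 50.5%, 3575 to 3789 late calls, 1409 to 1883 calls of 48h against 48hc and 1013 to 1338 of 12h against 0h. Continuing calls numbered 797 to 1064 and reversing 401 to 485 by 24h, and 307 to 448 and 275 to 351 by 12h. Opposite signs in 48hc numbered 100 to 152 and late calls differing from 48hc 660 to 1020. With 1 array left in a group, that array is assumed to vary like the other groups. Moves of over 1.5 times came without 48h replicate 1 (1409 calls of 48h against 48hc, 677 late calls differing from 48hc) or 2 (1475 and 660, and 100 opposite signs), 24h replicate 1 (797 continuing and 401 reversing by 24h, 109 opposite signs) or 2 (806 continuing and 412 reversing by 24h), 48hc replicate 2 (1552 calls of 48h against 48hc), 0h replicate 1 (1058 calls of 12h against 0h, 323 continuing by 12h) or 2 (1013 and 310, and 275 reversing by 12h), and 12h replicate 1 (1019 and 307). With the replicate block 5407 probes were called late, 49.2% of them rising, and no count outside the lists moved by over 1.5 times. Of 2980 alternative values of the 187 named probes, 2750 kept their call and sign, 205 lost the call, 25 gained it and 0 changed sign as a called value. Those 2750 include probes that stayed uncalled. Of the 149 named probes called late, 53 kept call and sign in every alternative. With median scaling the median of all tested probes in 48hc against 0h was -0.12. Leaving out the 12h arrays and recounting the lists under every alternative were chosen after seeing the data.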
